A study of Homo sapiens with 12 samples.

Results

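NXN and SOD3, 2 redox genes among the 8579 genes of the count table, were followed across all 12 libraries of A375, an established human melanoma line carrying the BRAF-V600E mutation. Both were picked by symbol because earlier results of these same data had shown them rising with treatment, so their levels and changes are given as a description, with errors and without tests. The cells were exposed for 72 hours to SEL201 at 2.5 µM, to OTX015 at 50 nM, to both agents (COMBO) or to neither (UNTREATED, with the solvent DMSO as the treatment label), with 3 libraries per group numbered 1 to 3. SEL201 blocks MNK1 and MNK2, kinases that act on the cap-binding translation factor eIF4E, and OTX015 inhibits the BET bromodomain proteins, which bind acetylated histones and promote transcription. All 4 groups share the same line and serum-containing medium, and the labels do not say whether the libraries came from separate cultures, so the spread between them may be technical.

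NXN encodes nucleoredoxin, a thioredoxin-family oxidoreductase of the cytosol and nucleus. It is known to bind Dishevelled and restrain Wnt/β-catenin signalling in a redox-dependent way, and to bind MYD88 and phosphofructokinase. SOD3 encodes extracellular superoxide dismutase, a secreted copper and zinc enzyme that binds heparan sulfate at the cell surface and in the matrix and converts superoxide to hydrogen peroxide. Superoxide itself comes from NADPH oxidases and xanthine oxidase among other sources, and peroxide is removed by peroxiredoxins, catalase and glutathione peroxidases.

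The RefSeq promoter sequences of both genes are shown because both genes were higher in the same treatments while their start regions differ widely in base composition. Each line is the 250 bases before a RefSeq start on GRCh38.p14, read 5′ to 3′ on the gene's strand, with capitals marking matches to a searched motif. The NXN line is chr17:979777-980026 on the minus strand, and the SOD3 line is chr4:24795323-24795572 on the plus strand.
NXN: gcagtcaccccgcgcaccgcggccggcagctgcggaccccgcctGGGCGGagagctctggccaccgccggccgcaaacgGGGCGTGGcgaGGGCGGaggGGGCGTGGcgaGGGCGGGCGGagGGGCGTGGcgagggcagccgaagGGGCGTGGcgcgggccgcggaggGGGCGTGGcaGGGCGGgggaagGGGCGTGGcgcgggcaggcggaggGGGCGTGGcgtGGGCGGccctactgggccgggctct
SOD3: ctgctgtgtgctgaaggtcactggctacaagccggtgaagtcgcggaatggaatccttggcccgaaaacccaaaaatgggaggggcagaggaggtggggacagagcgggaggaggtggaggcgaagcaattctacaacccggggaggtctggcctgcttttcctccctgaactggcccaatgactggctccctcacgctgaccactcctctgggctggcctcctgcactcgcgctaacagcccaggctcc

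The NXN sequence was 82.8% G and C and held 37 CpG dinucleotides, while only 1.05% of 35116 human promoters of the same length had a higher GC content. It held 6 matches of the GC box GGGCGG, which factors of the SP family are known to bind, and 2.22% of promoters held at least as many. A related word, GGGCGTGG, recurred 7 times in it, and 0.0142% of promoters held at least as many. That word was chosen after the sequence had been read. The SOD3 sequence was 61.6% G and C with 10 CpG dinucleotides, near the promoter medians of 58% and 11. It held no match of any motif searched. Those motifs were the antioxidant response core TGACNNNGC (found in 10.9% of promoters), the AP-1 site TGANTCA (6.57%), the E-box CACGTG (6.34%), the M-box core CATGTG (9.42%), the GC box (42.6%), TATAAA (10.7%), GGGCGTGG (4.71%) and the ETS core CCGGAA (14.5%). All were searched on both strands, and no motif match in the NXN line overlapped one of another motif, although 2 of the GC box matches overlap each other. RefSeq lists a second NXN start, at which CCGGAA occurred 3 times and the other motifs were not found. CCGGAA, like GGGCGTGG, was chosen after the sequences had been read. Gene counts do not show which start was used.

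NXN was lowest without drug and highest with both drugs. Its level, in TMM-scaled counts per 1000000 counts of this table (CPM), was 15.01, 12.6 and 11.02 CPM in UNTREATED libraries 1, 2 and 3. It was 28.2, 28.7 and 31.4 CPM with SEL201. It was 56.5, 43.1 and 55.8 CPM with OTX015 and 79.7, 65.8 and 86.9 CPM with COMBO. The order of the groups was therefore UNTREATED, SEL201, OTX015, COMBO, and no library of one group overlapped the next. NXN was picked for its rise, so this separation is description only. The share of all genes with such a separation was not counted. Group means were 12.9 ± 2.01, 29.4 ± 1.73, 51.8 ± 7.54 and 77.5 ± 10.7 CPM (mean ± SD, n = 3 each). Library 2 was the lowest of its group in both OTX015 and COMBO. These levels rested on 222 to 1849 counts per library, with a Poisson counting error of 2.33% to 6.71%.

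SOD3 had the same order of group means, with OTX015 and COMBO close together. Its level was 8.53, 5.39 and 3.18 CPM in UNTREATED libraries 1, 2 and 3, and 14.4, 12.8 and 7.93 CPM with SEL201. It was 26.5, 18.3 and 14.6 CPM with OTX015 and 27.2, 17.0 and 18.3 CPM with COMBO. The SEL201 range overlapped the UNTREATED range, and the OTX015 and COMBO ranges overlapped almost fully. Both of the latter lay above every SEL201 and UNTREATED library, but the gap between OTX015 and SEL201 was narrow. OTX015 library 3 stood at 14.6 CPM and SEL201 library 1 at 14.4 CPM. Their 95% exact Poisson intervals, 13.0 to 16.4 and 12.9 to 16.1 CPM, overlapped. Group means were 5.70 ± 2.69, 11.7 ± 3.39, 19.8 ± 6.07 and 20.8 ± 5.57 CPM (mean ± SD, n = 3 each). Counts ran from 64 to 632 per library. The lowest, UNTREATED 3, had a 95% exact Poisson interval of 2.45 to 4.06 CPM, which covers counting error only.

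**Figure D1:**
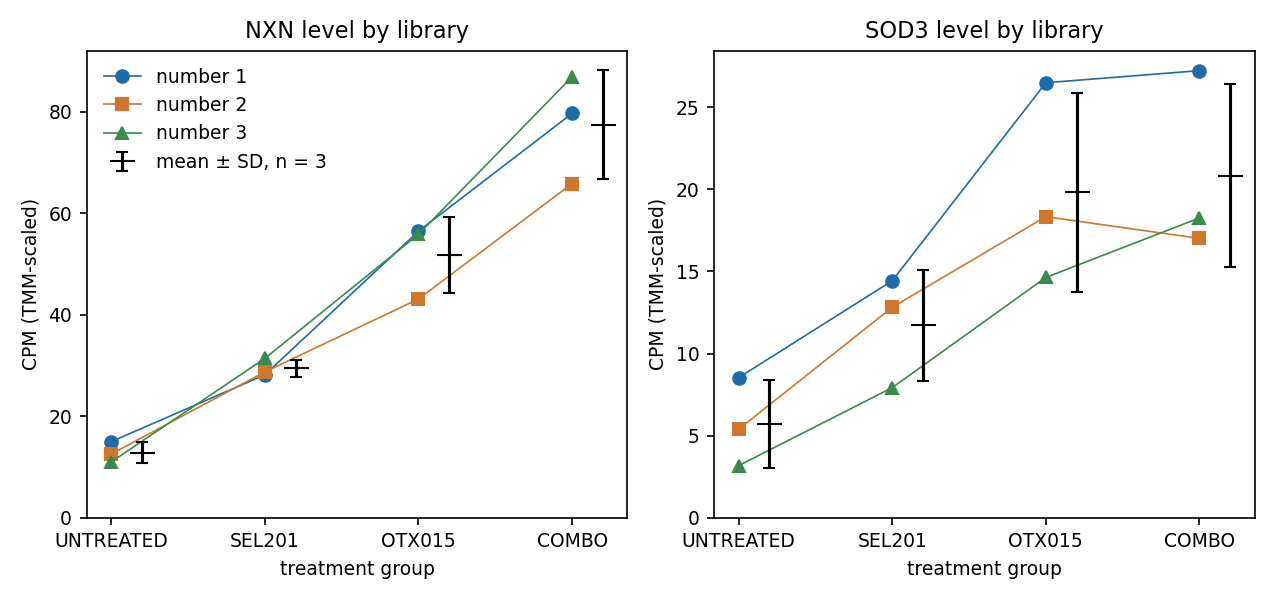
Levels of NXN (left) and SOD3 (right) in TMM-scaled CPM by treatment group. Coloured symbols are single libraries, joined by library number, and black bars are the mean ± SD (n = 3): NXN rises at each step from 12.9 to 77.5 CPM, while SOD3 has widely spaced lines, of which those of libraries 2 and 3 cross between OTX015 and COMBO, and means of 19.8 and 20.8 CPM in those groups.

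The spread of SOD3 went with the library number. Library 1 was highest in all 4 groups, and library 3 was lowest in UNTREATED, SEL201 and OTX015, with library 2 lowest in COMBO. On the log2 scale the number 1 libraries lay 0.48 above their group means and the number 3 libraries lay at -0.44, and 0.175% of all genes had a lower number 3 deviation. The pooled within-group SD of SOD3 was 0.50, against a median of 0.18 among the 500 genes nearest to it in level, of which 2 had a larger SD. Removing the number lowered it to 0.23. NXN had a pooled SD of 0.19, and 0.17 after the number was removed, against a median of 0.12 among the 500 genes nearest to its level.

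Compared within the same library number, both genes were higher than UNTREATED in every treated library. NXN was 1.88-fold, 2.29-fold and 2.85-fold higher with SEL201 in numbers 1, 2 and 3. It was 3.76-fold, 3.43-fold and 5.07-fold higher with OTX015 and 5.31-fold, 5.24-fold and 7.89-fold higher with COMBO. SOD3 was 1.69-fold, 2.38-fold and 2.50-fold higher with SEL201. It was 3.10-fold, 3.40-fold and 4.61-fold higher with OTX015 and 3.19-fold, 3.15-fold and 5.75-fold higher with COMBO. Number 3 gave the highest fold for both genes in each treatment, and its UNTREATED library was the lowest for both genes.

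The fitted changes place both genes at the top of the table. With SEL201 the log2 change was 1.19 (SE 0.14) for NXN and 1.04 (SE 0.33) for SOD3, and 4 and 9 of the 8579 genes had a larger rise. With OTX015 it was 2.01 (SE 0.14) for NXN and 1.78 (SE 0.32) for SOD3, with 4 and 7 genes above them. With COMBO it was 2.58 (SE 0.14) for NXN and 1.86 (SE 0.32) for SOD3, with 3 and 19 genes above them. The median log2 change of all genes was 0.0020 with COMBO, and 174 genes were at least 2-fold higher. These ranks describe the choice of the genes and are no evidence beyond it. Each of these contrasts shares the UNTREATED libraries.

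Adding the second agent separated NXN from SOD3. On top of SEL201, OTX015 went with a log2 change of 1.40 (SE 0.13) in NXN and 0.82 (SE 0.31) in SOD3. On top of OTX015, SEL201 went with 0.58 (SE 0.13) in NXN, which was positive in each number (0.50, 0.61 and 0.64). For SOD3 that change was 0.08 (SE 0.30), with 0.04, -0.11 and 0.32 by number, so its sign differed between numbers. It was -0.17 without COMBO replicate 1, -0.098 without OTX015 replicate 3, 0.34 without OTX015 replicate 1 and 0.21 without COMBO replicate 2. Multiplying both single-agent folds would give 9.15-fold for NXN and 7.08-fold for SOD3, and COMBO stood at 5.999-fold and 3.64-fold. On the log2 scale COMBO thus fell short of the sum of the single agents, with an interaction of -0.61 (SE 0.19) for NXN and -0.96 (SE 0.44) for SOD3. The shortfall had the same sign in all 3 numbers, at -0.41, -0.58 and -0.87 for NXN and -0.71, -1.34 and -0.98 for SOD3. With the library number as a block the interactions were -0.60 (SE 0.13) and -0.98 (SE 0.20). Among all genes, 28 had a lower interaction than NXN and 4 a lower one than SOD3. The interaction reuses the UNTREATED libraries of the contrasts by which both genes were picked. A low UNTREATED level both raises the single-agent changes and lowers the interaction, so its sign, SE and rank are description only.

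**Figure D2:**
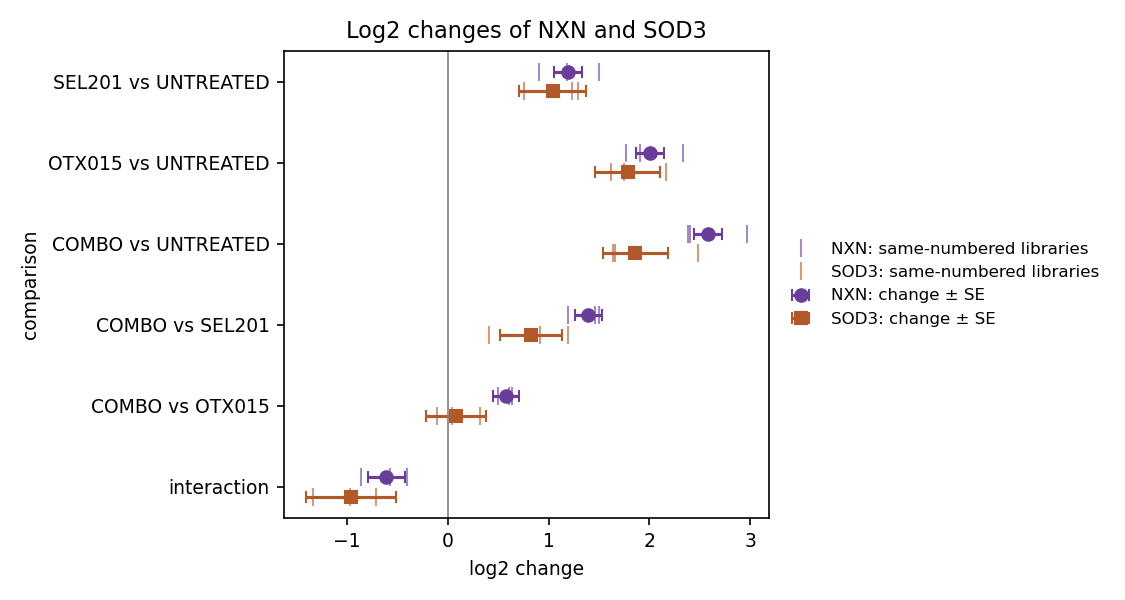
Log2 changes of NXN (circles) and SOD3 (squares) with their SE from the fit over 12 libraries, for the 5 pairwise comparisons and the interaction (the COMBO change less the changes of SEL201 and of OTX015 added together). Vertical ticks are same-numbered libraries. COMBO against OTX015 is 0.58 for NXN and 0.08 for SOD3, and both interactions lie below 0.

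Per kilobase of exon the 2 genes had similar levels. With all GENCODE v29 exons of each gene merged (5880 bases for NXN, 2128 for SOD3), the level per kilobase was 2.19 ± 0.343 CPM for NXN and 2.68 ± 1.27 CPM for SOD3 in UNTREATED, and 13.2 ± 1.82 and 9.79 ± 2.62 CPM in COMBO (mean ± SD, n = 3). The ratio of NXN to SOD3 on this scale was 0.817 in UNTREATED, 0.909 with SEL201, 0.946 with OTX015 and 1.35 with COMBO. The annotation used for the counts is not given in the sources used here, so the lengths may differ from those counted. In GENCODE v29, 3 genes lie opposite NXN, and none of them overlaps an NXN exon. SOD3 overlaps no gene there.

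Many genes had the same library-by-library shape as NXN. Over the 12 libraries, Pearson's r of log2 CPM with NXN exceeded 0.95 for 301 genes, against 13 for SOD3. It was below -0.9 for 882 genes with NXN and for 210 with SOD3. The libraries form 4 treatment groups, so r mostly describes the order of the groups, and no test is attached to it. Which genes came closest depended on the measure, and ranking by Spearman kept few of those named here. The closest to NXN were MMP15, a membrane-anchored matrix metalloproteinase gene (r = 0.995), and EPB41L5, a FERM-domain gene (r = 0.991). DOPEY2 (r = 0.990), TTC38 (r = 0.989), the prenyl-binding protein gene PDE6D (r = 0.988), the synaptic adhesion gene NLGN1 (r = 0.987), the kinesin gene KIF13A (r = 0.986) and GCDH, a mitochondrial enzyme gene of lysine breakdown (r = 0.986), followed. Their rises were smaller than that of NXN, with COMBO log2 changes from 0.50 for KIF13A to 1.55 for DOPEY2. The closest to SOD3 were the phosphatase gene PTPN13 (r = 0.970), the kinase gene PRKD1 (r = 0.968), CMTM8 (r = 0.967) and the scaffold gene CASK (r = 0.967). SLC7A2, a cationic amino acid transporter gene (r = 0.961), MOXD1 (r = 0.961), FAM46A (r = 0.959) and MED12L (r = 0.958) came next. NXN and SOD3 had r = 0.888 with each other, and SOD3 ranked 906 among the genes nearest to NXN.

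Of 131 listed genes other than NXN and SOD3, 44 were in the table, and genes such as SOD1, SOD2, TXN, CAT and the Dishevelled genes were not analysed here. By edgeR's quasi-likelihood test with Benjamini-Hochberg adjustment over all genes (adjusted p under 0.05), 4 of the 44 rose and 12 fell with SEL201, where 10.1% of all genes rose and 11.1% fell. The 4 were CCS, TXNDC16, GGT7 and ZNRF3. ZNRF3, an inhibitor of Wnt signalling (0.17, edgeR adjusted p = 0.048), missed the threshold in 10 of the 12 fits that left out 1 library (edgeR adjusted p up to 0.17). With OTX015, 10 rose and 17 fell (all genes 23.3% and 24.7%), and with COMBO 12 rose and 19 fell (28.3% and 29.6%). Their median log2 change with COMBO was -0.03. COMBO against SEL201 gave 8 higher and 14 lower (18.8% and 21.2%). COMBO against OTX015 gave none higher and 3 lower (2.9% and 4.01%), which were GPX8 (-0.27, edgeR adjusted p = 0.018), ABCC2 (-0.48, adjusted p = 0.0021) and AKR1C3 (-0.35, adjusted p = 0.011). That call of GPX8 was lost without OTX015 replicate 1, OTX015 replicate 2 or COMBO replicate 3 (edgeR adjusted p of 0.08, 0.054 and 0.06). The shares of listed genes that rose with SEL201, OTX015 and COMBO were thus near those of all genes. The shares that fell, 12, 17 and 19 of 44, were above the 11.1%, 24.7% and 29.6% of all genes. The lists were chosen with earlier results of these data known, so these shares are description only. In the interaction 1 listed gene, AKR1C1, was above the sum of the single agents and none below it (0.21% and 0.0699%). AKR1C1 fell in each treatment, so its place above the sum is a fall smaller than additive.

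With the library number as a block, more of the listed genes were called. With SEL201, 11 rose and 16 fell, where 18% of all genes rose and 19.1% fell. In COMBO against OTX015, 1 was higher and 8 were lower (10% and 12.2%). In the interaction 7 were above and 1 below the sum (4.02% and 2.73%). None of the 44 rose by as much as either member in any of the 3 contrasts with UNTREATED. The members were picked for their rise, so this follows largely from that choice.

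Of 17 listed genes that produce superoxide 3 were measured, and all 3 fell with COMBO, where 29.6% of all genes fell. NOX4, a NADPH oxidase gene, fell from 34.7 ± 2.76 CPM in UNTREATED to 16.0 ± 1.69 with SEL201, 6.65 ± 1.06 with OTX015 and 4.94 ± 0.926 with COMBO (mean ± SD, n = 3), and its libraries ran from 32.5 to 37.8 CPM in UNTREATED and from 3.92 to 5.73 CPM in COMBO. The COMBO change of NOX4 was -2.82 in log2 units, with an SE of 0.16 (edgeR adjusted p = 3.3e-09). XDH, the xanthine dehydrogenase gene, fell from 45.7 ± 10.1 to 23.6 ± 3.57, 11.9 ± 1.23 and 11.6 ± 1.44 CPM in the same order. Between OTX015 and COMBO, XDH differed by -0.05 (SE 0.17, edgeR adjusted p = 0.92). NOX1 fell with COMBO (log2 change -0.69, edgeR adjusted p = 0.0043), and its changes of -0.29 with SEL201 (adjusted p = 0.27) and -0.33 with OTX015 (adjusted p = 0.13) were not past the threshold.

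Among copper handling genes, which serve SOD3 and its relatives, the chaperone rose and the pumps did not pass the test. CCS, the copper chaperone that loads the intracellular enzyme SOD1, rose from 127 ± 3.37 CPM to 148 ± 4.34 with SEL201, 173 ± 2.70 with OTX015 and 181 ± 6.04 with COMBO. Its COMBO change was 0.51 (SE 0.04, edgeR adjusted p = 3e-07). ATP7A, which pumps copper into the secretory pathway where SOD3 is loaded, had a COMBO change of 0.03 (SE 0.07, edgeR adjusted p = 0.7), and the related pump gene ATP7B one of 0.15 (adjusted p = 0.086). With the replicate block ATP7B rose by 0.15 with COMBO (edgeR adjusted p = 0.023).

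Of 14 measured genes in the thioredoxin system list, not all of them relatives of NXN, 5 rose and 4 fell with COMBO. This was near the 28.3% and 29.6% of all genes, and the median log2 change was 0.10. TXNDC16, a thioredoxin-domain gene, rose most of them, by 0.57 (SE 0.06, edgeR adjusted p = 9.6e-07), from 57.4 ± 0.766 to 85.2 ± 2.03 CPM. TXNL4B, which encodes a spliceosome-associated thioredoxin-like protein, rose by 0.29 (adjusted p = 2.7e-05 by edgeR). TXNRD2, the mitochondrial thioredoxin reductase gene, fell by 0.51 (edgeR adjusted p = 3.2e-05) and TXNDC15 fell by 0.34 (adjusted p = 9.9e-06). The others that rose were the glutaredoxin gene GLRX2 (0.31), the methionine sulfoxide reductase gene MSRB1 (0.26) and TXNDC5 (0.15), and MSRB3 (-0.24) and a further methionine sulfoxide reductase gene, MSRA (-0.22), fell (highest edgeR adjusted p = 0.048, for TXNDC5). With SEL201 alone, 1 gene rose (TXNDC16, 0.24, edgeR adjusted p = 0.0085) and 1 fell (TXNRD2, -0.24, adjusted p = 0.029). The fall of TXNRD2 was not past the threshold without UNTREATED replicate 3 (edgeR adjusted p = 0.13), SEL201 replicate 1 (0.085) or SEL201 replicate 2 (0.11), and its change without UNTREATED replicate 3 was -0.15.

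Downstream of superoxide dismutases, 2 of the 3 measured peroxide-removing genes fell with COMBO, where 29.6% of all genes fell. GPX8, an endoplasmic reticulum peroxidase gene, stood at 386 ± 8.16 CPM in UNTREATED and 212 ± 17.2 CPM in COMBO, a log2 change of -0.87 with an SE of 0.06 (edgeR adjusted p = 3.8e-08), and its relative GPX7 fell by 0.56 (adjusted p = 0.00014). GPX3, the secreted glutathione peroxidase gene, had a change of -0.09 (edgeR adjusted p = 0.24). Of 4 measured genes in the glutathione list, GGT7 rose by 0.29 (edgeR adjusted p = 4.5e-05) and ETHE1 by 0.14 (adjusted p = 0.025). GGT7 belongs to the γ-glutamyltransferase family and ETHE1 is a mitochondrial sulfur dioxygenase, so neither makes glutathione. The rise of ETHE1 was not past the threshold when any of UNTREATED replicates 1 and 2 or COMBO replicates 1 and 2 was left out (edgeR adjusted p up to 0.089).

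Of 9 measured NRF2 regulators and response genes, 7 fell with SEL201, 7 with OTX015 and 7 with COMBO, where 11.1%, 24.7% and 29.6% of all genes fell, and none rose without the replicate block. With COMBO the changes were -1.37 for the export pump gene ABCC2 (edgeR adjusted p = 3.5e-09), -2.41 for AKR1C1 (adjusted p = 2.5e-08), -1.75 for AKR1C2 (1.5e-07 as the adjusted p) and -1.11 for AKR1C3 (adjusted p = 1.4e-08). The aldo-keto reductase genes are near-identical copies, so reads may have been split between them. BACH1 (-0.18), which represses NRF2 targets, and the small MAF partner genes MAFF (-0.58) and MAFK (-0.42) also fell with COMBO (highest edgeR adjusted p = 3e-04). HMOX1, a classical target, had a change of -0.21 (edgeR adjusted p = 0.17) and OSGIN1 one of 0.19 (adjusted p = 0.45). With the replicate block both passed the threshold with COMBO, HMOX1 at -0.20 (edgeR adjusted p = 4.1e-05) and OSGIN1 at 0.19 (adjusted p = 0.00056). In that fit HMOX1 was also lower with SEL201 (-0.25, edgeR adjusted p = 5.4e-06), and OSGIN1 was higher with SEL201 (0.21, adjusted p = 0.00083) and OTX015 (0.17, adjusted p = 0.0027).

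Among known partners of nucleoredoxin, MYD88, an adaptor of Toll-like receptor signalling, was the measured one. It had a log2 change of -0.06 with SEL201 (edgeR adjusted p = 0.49) and fell by 0.30 with OTX015 (adjusted p = 0.00027) and by 0.27 with COMBO (adjusted p = 0.00044). Of 7 measured Wnt response genes, 4 rose and 2 fell with COMBO, where 28.3% and 29.6% of all genes did. AXIN2 rose by 0.49 (SE 0.11, edgeR adjusted p = 0.002), NKD1 by 0.52 (adjusted p = 0.0011), ZNRF3 by 0.20 (adjusted p = 0.0062) and LEF1 by 0.19 (adjusted p = 0.017). DKK1, a secreted Wnt inhibitor, fell by 1.51 (SE 0.27, edgeR adjusted p = 0.00022) and NKD2 by 0.65 (adjusted p = 0.024). AXIN2 had at least 144 counts in each UNTREATED library and at least 163 in each COMBO library.

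**Figure D3:**
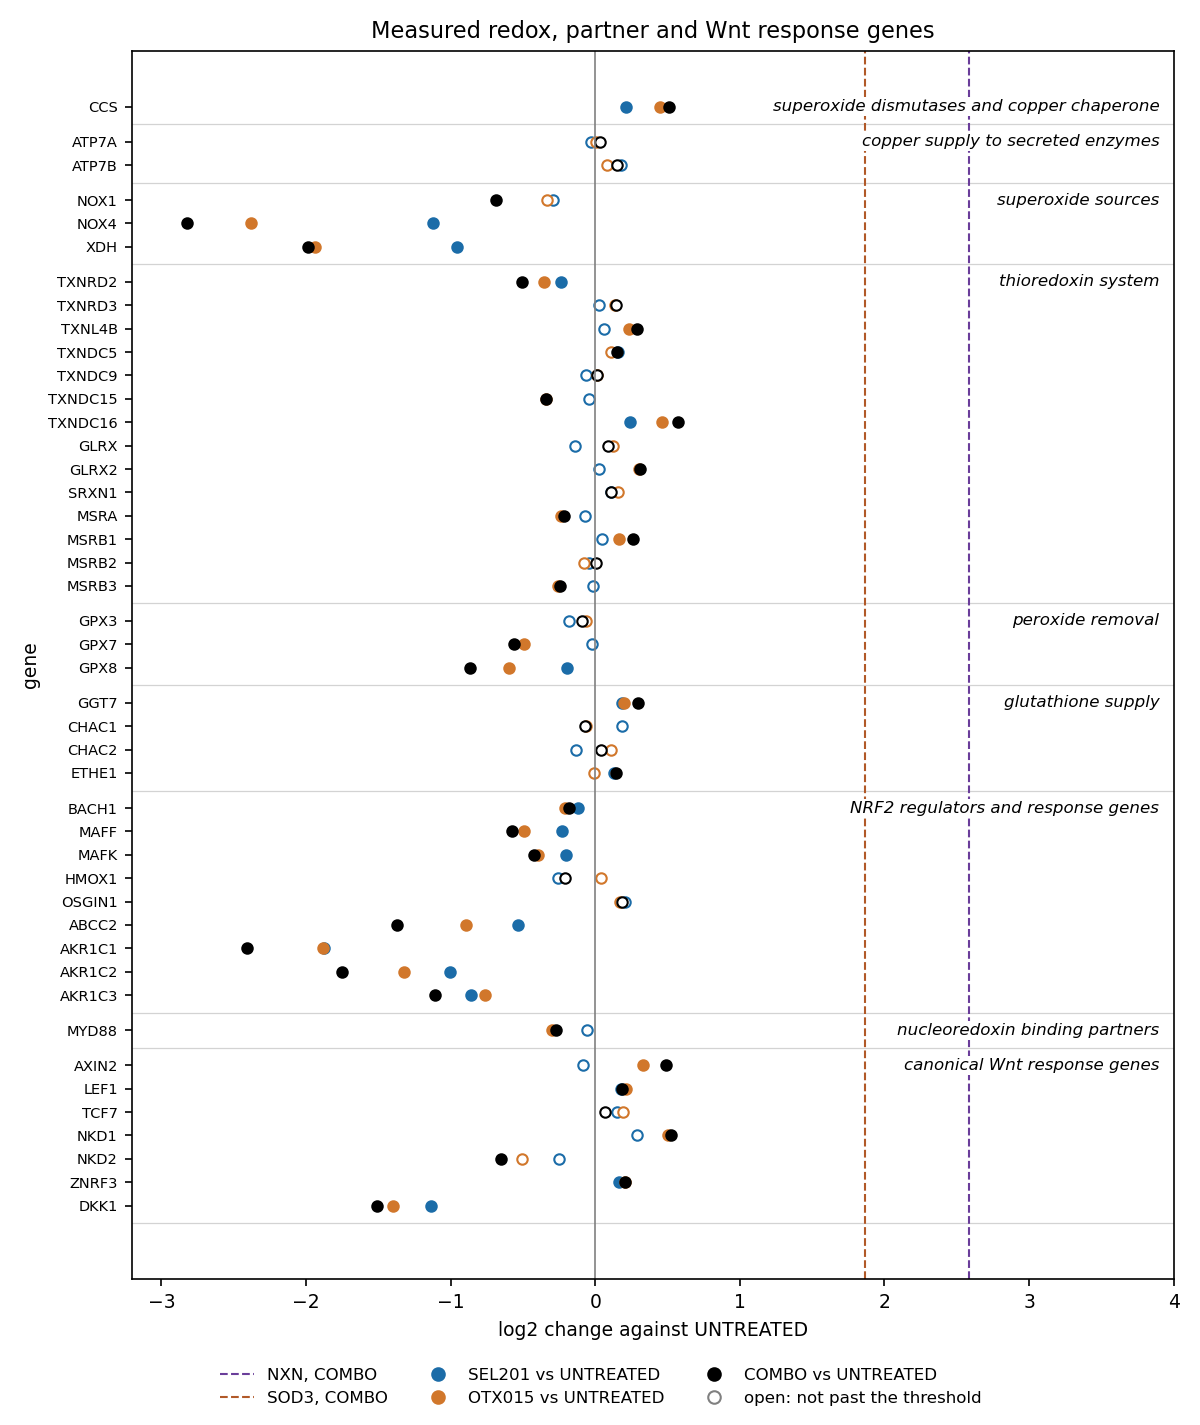
Log2 changes against UNTREATED of the 44 measured listed genes, by list, with SEL201 (blue), OTX015 (orange) and COMBO (black). Filled points passed the edgeR threshold, and dashed lines mark the COMBO changes of SOD3 (1.86) and NXN (2.58), which were picked for their rise. Both lines lie to the right of every point.

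Neighbouring genes showed no rise like that of either member. Because NXN and SOD3 were picked for their rise, a few genes falling short of it follows largely from that choice. The measured neighbours lay 353.4 to 763.1 kb from NXN and 2.7 to 4028.2 kb from SOD3. Among the 5 nearest measured protein-coding genes around NXN in RefSeq gene order, none was higher and 3 were lower with COMBO, where 28.3% and 29.6% of all genes were. These were SERPINF2 (log2 change -1.66, edgeR adjusted p = 3.3e-08), RILP (-0.64, adjusted p = 3.7e-05) and RFLNB (-0.61, adjusted p = 5.1e-05). With the replicate block SLC43A2, an amino acid transporter gene, was higher with COMBO (log2 change 0.17, edgeR adjusted p = 0.0041, against 0.2 without the block). Of the 6 around SOD3, none was higher with any treatment, and ZCCHC4 was lower with COMBO (log2 change -0.25, edgeR adjusted p = 0.0013). CCDC149, the next gene after SOD3, had a COMBO change of -0.05 (edgeR adjusted p = 0.79). PPARGC1A, on the other side and a coactivator gene known for inducing antioxidant enzymes, fell with SEL201 (-0.55, edgeR adjusted p = 0.021) and had a change of -0.26 with COMBO (adjusted p = 0.15). Up to 20 protein-coding genes that were not analysed here lie between NXN and such a neighbour.

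**Figure D4:**
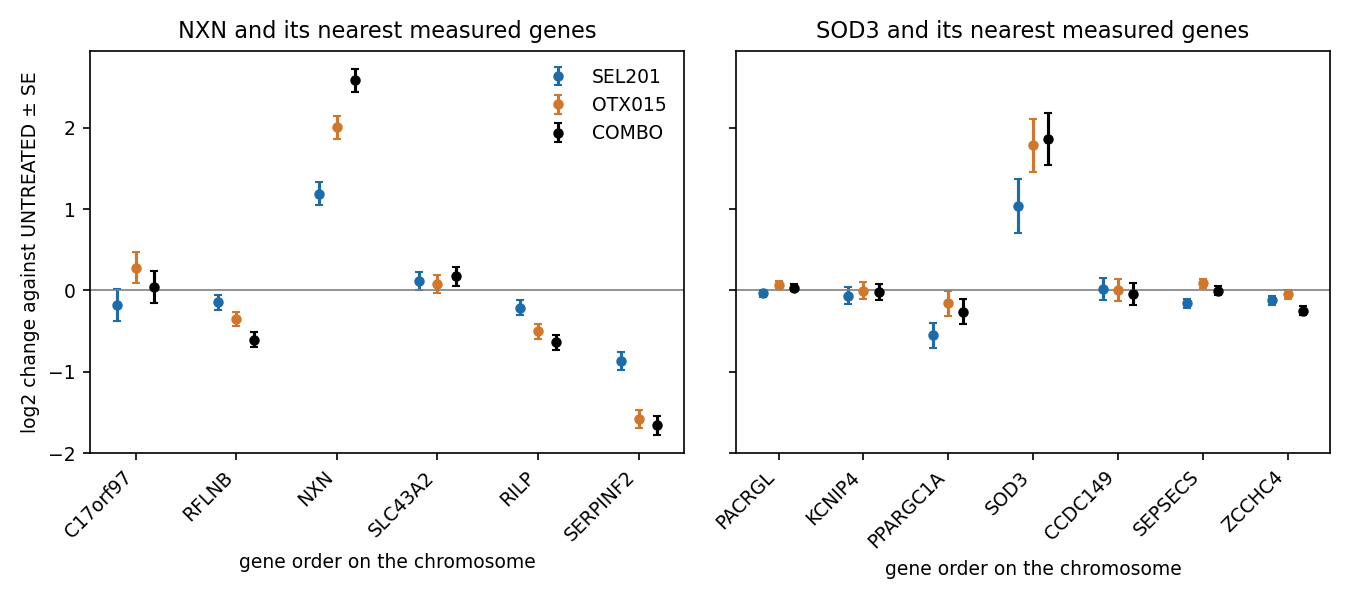
Log2 change against UNTREATED (± SE) of NXN (left), SOD3 (right) and their nearest measured protein-coding genes in chromosomal order. The members, which were picked for their rise, stand at 1.04 or above in every treatment, and the highest change of any neighbour is 0.28.

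Column totals over the 8579 genes were 15146071 to 24111541 counts. The table holds only part of the transcriptome, so these totals are not the sequencing depth. Of 10 markers of the melanocyte and melanoma lineage, 6 were in the table, with MITF at 137 to 187 CPM and PAX3 at 127 to 159 CPM, but the pigment genes MLANA and PMEL were at most 7.01 and 7.58 CPM. The epithelial, immune and endothelial markers listed were not analysed here. Of 4 fibroblast markers 3 were, and their summed level was 62.2 to 85.5 CPM in UNTREATED, 47.4 to 59.7 with SEL201, 37.0 to 38.1 with OTX015 and 32.4 to 38.9 with COMBO, lower where NXN and SOD3 were higher. None of the 3 was at 0 in any library, and the part of other cells in the result was not tested. In such bulk RNA a change in the number of cells carrying a transcript and in its amount per cell cannot be told apart.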

How the data were processed

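RNA from 12 A375 libraries was measured by stranded poly(A) RNA-seq, per the labels' protocols. The authors deposited raw counts per gene in 12 columns. Tools listed without roles in the submitters' processing notes are STAR 2.5.4b with SAMtools 1.9, FastQC, Trimmomatic, DESeq2 and featureCounts, on build hg19. For annotation and strand setting the record is: not given in the sources used here.

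Counts were analysed with edgeR 4.0.16 in R 4.3.3 (TMM, filterByExpr, which kept all 8579 genes, glmQLFit and glmQLFTest with group means over 12 libraries, Benjamini-Hochberg adjustment over all genes, threshold 0.05). Each SE was derived from the F statistic and the log2 change. NXN and SOD3 were left out of every list count. The members and lists were chosen with earlier results of these data known. Named genes were NXN and SOD3, a fixed set of redox and partner genes, up to 4 further genes per list with the lowest p in COMBO against UNTREATED, the 8 genes nearest in pattern (prior count 2, at least 5 CPM in 1 group) and up to 3 measured neighbours a side. Others named were chosen after their values were seen: ATP7B, GPX3, HMOX1, OSGIN1, BACH1, MAFF, MAFK, LEF1, NKD2, GLRX2, MSRB1, MSRB3, MSRA and TXNDC5. Promoters (RefSeq, GRCh38.p14) matched both members, and no coordinates of that build were used with the counts.

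Same-numbered libraries deviated from their group means together (correlations across genes 0.26 to 0.57 in 18 pairs, -0.46 to 0.19 in the other 36). The numbers thus appear to pair the libraries, which the labels do not state. The main fit did not use this pairing, and values are from it unless the replicate block is named. With SEL201 the SE of SOD3 was 0.33 in the main fit and 0.15 with the block. No pair within a group looked like 1 library deposited again (chi-square per degree of freedom of 6.34 or more). On simulated counts of 8579 genes for COMBO against UNTREATED, 50% of genes changed 1.25-fold, 86% changed 1.5-fold and 100% changed 2-fold or 3-fold were recovered, with 11 unchanged genes called. The simulated libraries had no library-number effect and only the spread typical of each level. Their rates therefore need not hold for these data or for a gene as variable as SOD3. Alternatives were RLE scaling, DESeq2 1.42.0, other filters, the replicate block, only the compared groups, and libraries left out.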

Additional observations from a re-analysis of the deposited data

Results flagged for a closer look

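Without the replicate block, AKR1C1 was the only listed gene whose response to SEL201 differed with and without OTX015 by the edgeR interaction test. Its log2 changes were -1.88 with SEL201, -1.88 with OTX015 and -2.41 with COMBO, so it fell by less than the single agents added together. The interaction was 1.35, with an SE of 0.23 (edgeR adjusted p = 0.03), where 0.21% of all genes were called above the sum. NXN and SOD3, which rose, had interactions of -0.61 and -0.96, so their COMBO rise was likewise less than the single-agent rises added together. AKR1C1 stood at 26.5 ± 4.17 CPM in UNTREATED, 7.22 ± 0.889 with SEL201, 7.18 ± 1.15 with OTX015 and 4.98 ± 0.671 with COMBO (mean ± SD, n = 3). Leaving out 1 library gave 1.21 to 1.49, and 7 of these 12 fits were not past the threshold (edgeR adjusted p from 0.06 to 0.099), namely those without UNTREATED replicates 2 or 3, SEL201 replicates 1 or 2, OTX015 replicates 2 or 3, or COMBO replicate 2. With the replicate block the AKR1C1 value was 1.35 (edgeR adjusted p = 7e-05). That fit called 7 listed genes above the sum and 1 below it, where 4.02% and 2.73% of all genes were. Those above included DKK1 (1.04, edgeR adjusted p = 4.1e-11), XDH (0.90, adjusted p = 8.5e-05) and AKR1C3 (0.51, adjusted p = 0.00012). LEF1 was below it (-0.20, edgeR adjusted p = 0.016). AKR1C1 has near-identical copies, so its counts are uncertain.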

How the results depend on the processing

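The changes of NXN and SOD3 kept their sign under every alternative in each comparison except COMBO against OTX015 for SOD3. That change was -0.0126 without the 4 number 3 libraries and ran from -0.17 to 0.34 when 1 library was left out. For NXN with COMBO the alternatives ran from 2.40 to 2.71, and for SOD3 from 1.59 to 2.27. The replicate block raised the listed genes called from 16 to 27 with SEL201, from 3 to 9 in COMBO against OTX015 and from 1 to 8 in the interaction. All genes called rose with it from 1820 to 3180, from 593 to 1908 and from 24 to 579. Beside the calls of ATP7B, HMOX1 and OSGIN1 given above, it changed no call printed for a listed gene in COMBO against UNTREATED. For the interaction, DESeq2 called 3 listed genes and 119 of all genes, and the fit without the number 3 libraries 3 and 72. Leaving out 1 library gave 11 to 17 listed genes with SEL201, 2 to 3 in COMBO against OTX015 and 0 to 1 in the interaction, and 304 to 647 and 4 to 23 of all genes in the last 2. ATP7A, near 0 throughout, changed sign: -0.10 to 0.028 with SEL201 when 1 library was left out, -0.000628 with only the compared groups, -0.0277 without the number 3 libraries and -0.037 to 0.058 with OTX015, and -0.016 to 0.087 with COMBO. Of 1440 alternative values for named genes, 45 lost the threshold, in 9 results. One was AXIN2 with OTX015, a call of 0.33 that ranged up to an edgeR adjusted p of 0.1. Ranking by Spearman kept 1 of the 8 genes nearest to NXN and 3 of those nearest to SOD3. Genes outside this table and SOD3 at its lowest counts limit what can be seen.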
